A study of Mus musculus with 6 samples.

Results

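Cdkn1a, Bid, Kif20a and Tyms are 4 genes of cell-cycle arrest, apoptosis and cell division, taken by symbol from the 1285 genes of the authors' deposited comparison of Snai2-/- with control cells. They were chosen from their values in that comparison, so those values are given as a description and no test of them was made. The cells were MSPCs, mesenchymal stem and progenitor cells of the bone marrow stroma that support blood stem cells, from mice aged 8 weeks. About 2000 cells per library were sorted that lacked CD45, Ter119 and CD31 (leukocyte, erythroid and endothelial surface markers) and were positive for Nes-GFP, a fluorescent reporter under nestin regulatory sequences, which both groups share. There were 3 libraries from control animals and 3 from Snai2-/- littermates. The Snai2-/- animals carry no working copy of the gene for Slug, a zinc-finger repressor of the Snail family. The labels do not give the wildtype or heterozygous state of the controls, while the headers of the deposited comparison call that group wildtype.

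The deposited table gives 1 mean per group on a normalized scale (its unit is not stated in the labels or headers), together with the ratio of both, a p-value and an adjusted p-value (FDR, the false discovery rate). Whether the scale corrects for transcript length is not stated either, so where genes are set side by side by level, or marker means are summed, the level is the deposited value and not abundance per length. Values of single libraries were not analysed here, so no spread, sample-level overlap or depth stands beside any value. Snai2, the targeted gene, averaged 9.20 in Snai2-/- against 636 in control cells per the authors' deposited table, in the direction of the labels. Every gene in the table has an unadjusted p below 0.05. A gene missing from it either had a larger p, was not tested, or is absent for another reason, and these cases cannot be told apart. The shares of gene lists given below therefore count every gene of a list, tested or not. The share of all genes set beside them counts only genes tested. The lists were chosen with earlier results of these data known. Their shares and counts of direction are therefore a description and not evidence of an excess.

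A cell that is damaged or withdrawn from growth can stop at a checkpoint or die, and a growing cell must copy its DNA and then separate it. Cdkn1a encodes p21, an inhibitor of cyclin-dependent kinases that halts the cycle and is a classic target of the transcription factor p53. Bid encodes a BH3-only protein of the BCL2 family that, once cut by caspase-8, carries the death-receptor signal to the mitochondria. Tyms encodes thymidylate synthase, which makes the thymidine nucleotide needed for DNA synthesis, and Kif20a encodes a mitotic kinesin that works on the central spindle in cytokinesis. In adult marrow most stromal progenitors are thought to divide rarely.

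The upstream sequences of Cdkn1a and Tyms are shown because they hold the motif matches found among the 4 genes. They are the 250 bases before a RefSeq start site on GRCm38.p6, written 5′ to 3′ on the gene's strand. Capitals mark a match to the p53 consensus site in the sequence before the upstream start of Cdkn1a, and the E-box CAGGTG, a form that Snail-family proteins are known to bind, in the others.
Cdkn1a upstream start, chr17:29090729-29090978, plus strand: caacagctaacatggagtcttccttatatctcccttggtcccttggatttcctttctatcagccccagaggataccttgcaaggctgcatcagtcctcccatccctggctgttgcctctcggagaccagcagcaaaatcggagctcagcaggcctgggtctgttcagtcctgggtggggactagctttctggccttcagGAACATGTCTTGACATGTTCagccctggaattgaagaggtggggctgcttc
Cdkn1a downstream start, chr17:29093519-29093768, plus strand: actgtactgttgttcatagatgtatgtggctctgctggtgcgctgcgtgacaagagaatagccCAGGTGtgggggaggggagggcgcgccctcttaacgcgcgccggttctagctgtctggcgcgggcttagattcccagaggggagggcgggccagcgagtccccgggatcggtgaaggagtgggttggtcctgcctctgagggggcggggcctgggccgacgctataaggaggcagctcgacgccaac
Tyms, chr5:30073626-30073875, minus strand: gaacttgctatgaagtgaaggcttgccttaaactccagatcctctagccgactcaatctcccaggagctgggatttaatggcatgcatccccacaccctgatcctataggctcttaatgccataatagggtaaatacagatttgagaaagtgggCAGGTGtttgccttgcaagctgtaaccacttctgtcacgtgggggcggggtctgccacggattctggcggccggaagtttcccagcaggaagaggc

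The RefSeq promoter table held 3 of the 4 genes, with 4 start sites in all. The p53-type match before the upstream start of Cdkn1a lay at bases -51 to -32 and departed from the consensus at 1 of its 20 positions. Under the same search (no spacer, at most 1 mismatch, a consensus that reads the same on both strands), 25 of 32851 RefSeq promoter windows held such a match, 0.0761% of them. Among the 1225 windows of genes in the deposited comparison, that of Cdkn1a was the 1 match, 0.0816%. The p53 motif was added to the search after the deposited values were read. The E-box CAGGTG, searched on both strands, lay at -187 to -182 before the downstream start of Cdkn1a and at -96 to -91 before that of Tyms. It is a common motif, present in 17.2% of all windows and in 17.9% of the 1225 windows of genes in the deposited table. The window of Bid held none of the motifs searched, and no match in the 3 genes was found to CCAAT (33.8% of all windows), to TTTGAA or TTCGAA (17.1%), or to the E2F-type forms TTTCGCG or TTTGGCG or TTTCCCG (4.57%), each searched on both strands. The windows of Bid and of the downstream start of Cdkn1a were richer in G and C, at 63.6% and 64.8%, than the median window at 52.4%. A match describes the letters of the window and does not show that a factor binds there.

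**Figure D1:**
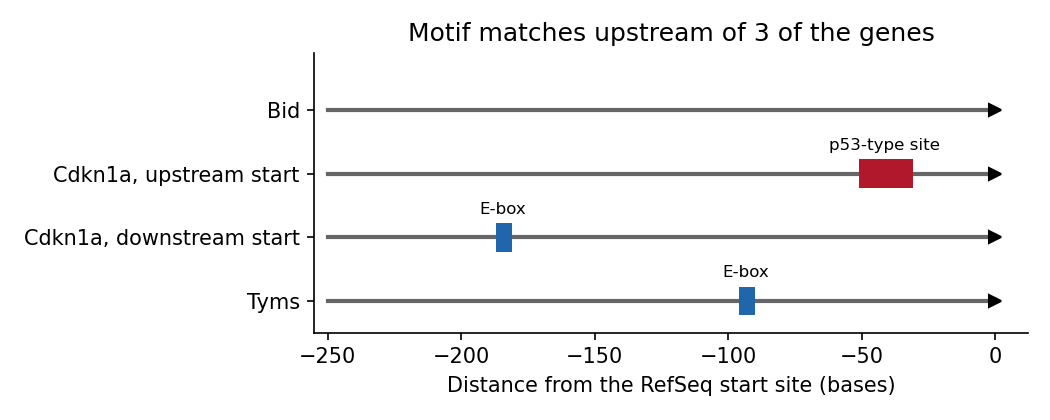
Positions of motif matches in the 250 bases before 4 RefSeq start sites of Bid, Cdkn1a and Tyms. The x axis is the distance from the start site in bases, lines are the windows searched, arrowheads the start sites and boxes the matches. The p53-type match sits 51 to 32 bases before the upstream start of Cdkn1a, the E-boxes lie farther from the other starts, and the Bid line is empty.

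All 4 genes had a higher mean in Snai2-/- cells, and a deposited p below 0.05 in that direction was reached by 3.77% of the 16718 genes tested (7.69% in either direction). The genes were picked from that table, so nothing can be read from their presence in it. The ratios of the 4 ran from 1.55 to 2.45 in the authors' deposited table, with a median log2 ratio of 0.96. The 631 genes higher in Snai2-/- cells had a median log2 ratio of 1.19 in the same table, and all 1285 listed genes, 49.1% of them higher, one of -0.36. The 4 therefore lie among the moderate changes of the table and not at its extreme. An FDR below 0.05 was reached by 0 of the 4 and by 0% of all genes tested, per the authors' deposited table, against 4 of the 4 at an unadjusted p below 0.05. Their FDR values ran from 0.324 to 0.592 there. The model behind those values is not named in the labels or headers.

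**Figure D2:**
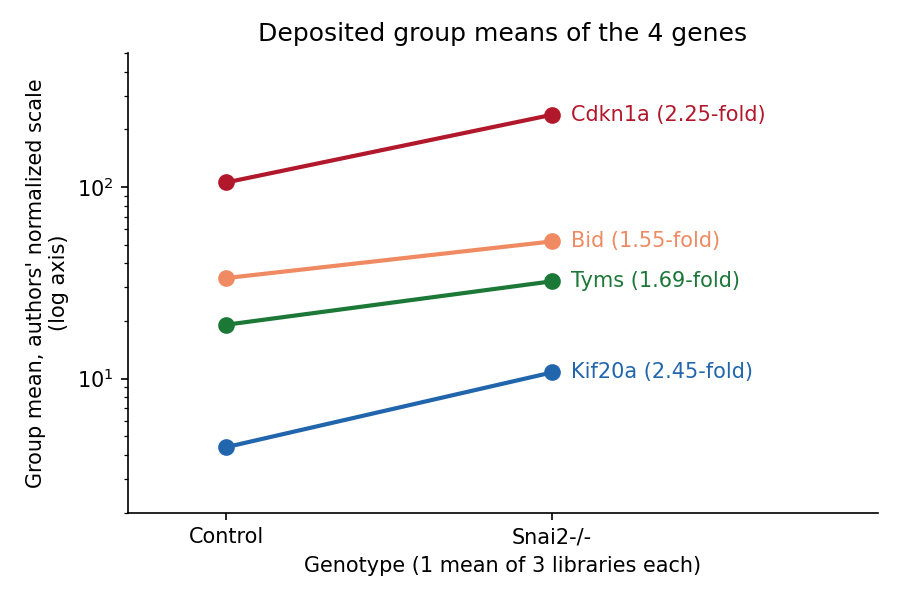
Deposited group means of Cdkn1a, Bid, Tyms and Kif20a in control and Snai2-/- cells, on a log axis in the authors' normalized scale. Each point is 1 group mean of 3 libraries, with no error available, and lines join the means of a gene. All 4 lines slope upward, most steeply for Kif20a (2.45-fold) and Cdkn1a (2.25-fold).

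Cdkn1a, the arrest gene, stood out from the other 3 by the smallest p. Per the authors' deposited table it averaged 237.9 in Snai2-/- against 105.5 in control cells. That is a difference of 132.3 on the normalized scale and a ratio of 2.25. The p-value before adjustment was 0.00181 and the FDR 0.324, per the authors' deposited table, rank 93 of 1285 by p. Among the 34 genes that were higher in Snai2-/- cells at a similar level (within 0.5 on the log2 scale), 26 had a smaller ratio than Cdkn1a. The median ratio of those 34 genes was 1.57. The gene lies on chromosome 17, from 29090976 to 29100727 on the plus strand in GENCODE M21 on GRCm38. Its 2 RefSeq starts give transcripts that the deposited gene-level value does not separate. An unclassified gene model on the opposite strand, AC167363.2, shares 273 bases of its exons, 7.68% of their length.

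Cdkn1a was the 1 listed gene of 8 inhibitors of cyclin-dependent kinases, 12.5% of the list where 7.69% of all genes tested were listed. Cdkn1a was picked from the comparison and 0 others of the list were listed, so nothing can be read from this share. Its relatives Cdkn1b and Cdkn1c and the senescence-linked Cdkn2a were absent from the table. Of 24 genes of the p53 pathway and its textbook targets, 2 were listed, and they differed in direction. That list does not hold Cdkn1a itself, so it is not the whole set of p53 targets. Aen, a p53-induced nuclease of apoptosis, averaged 19.03 in Snai2-/- against 10.8 in control cells, at an FDR of 0.649 per the authors' deposited table. Sesn1, a p53-induced stress protein, averaged 17.8 in Snai2-/- against 28.3 in control cells, at an FDR of 0.464 per the authors' deposited table. The share of the p53 list in the table, 8.33%, was close to the 7.69% of all genes tested. Mdm2, Ccng1 and Trp53 itself were not in the table.

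Bid had the smallest ratio of the 4. Per the authors' deposited table it averaged 52.0 in Snai2-/- against 33.5 in control cells. The ratio was 1.55, the unadjusted p 0.0177 and the FDR 0.512 there, rank 579 of 1285 by p in the authors' deposited table. Among 106 genes higher in Snai2-/- cells at a similar level, 46 had a smaller ratio, and the smallest listed was 1.24. Bid lies on chromosome 6, from 120891930 to 120916853 on the minus strand. Its end overlaps that of Bcl2l13, another gene of the BCL2 family on the opposite strand, over 628 exonic bases or 17.7% of the exons of Bid. The library kits named in the labels do not mark the strand, so reads from that stretch cannot be assigned by strand. Bcl2l13 was not in the table.

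Bid was the 1 listed gene of 23 from the BCL2 family and the mitochondrial arm of apoptosis. That is 4.35% of the list, where 7.69% of all genes tested were listed. Bid was picked from the comparison and 0 others of the list were listed, so nothing can be read from this share. The partners of Bid, Bax and Bak1, the guardians Bcl2, Bcl2l1 and Mcl1, and the p53-induced Pmaip1 and Bbc3 were not in the table. Of 21 death-receptor and caspase genes 3 were listed, 14.3% of the list against 7.69% of all genes tested, and 2 of the 3 had the opposite direction to Bid. Casp9, the initiator caspase of the mitochondrial arm, averaged 36.2 in Snai2-/- against 49.9 in control cells, at an FDR of 0.559 per the authors' deposited table. Tnfrsf10b, the death receptor for TRAIL, averaged 1.39 in Snai2-/- against 3.25 in control cells, at an FDR of 0.535 per the authors' deposited table. Aifm1, a mitochondrial flavoprotein that can act in caspase-independent death, averaged 42.0 in Snai2-/- against 31.7 in control cells, at an FDR of 0.52 per the authors' deposited table. Casp8, whose protein cuts BID, and the receptor gene Fas were not in the table. Taking the 4 arrest and apoptosis lists as a whole, 7 of 76 genes were listed, 4 higher and 3 lower. Their share of 9.21%, where 7.69% of all genes tested were listed, counts Cdkn1a and Bid, which were picked from the comparison. With Cdkn1a and Bid set aside 5 genes were listed, 2 higher and 3 lower.

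**Figure D3:**
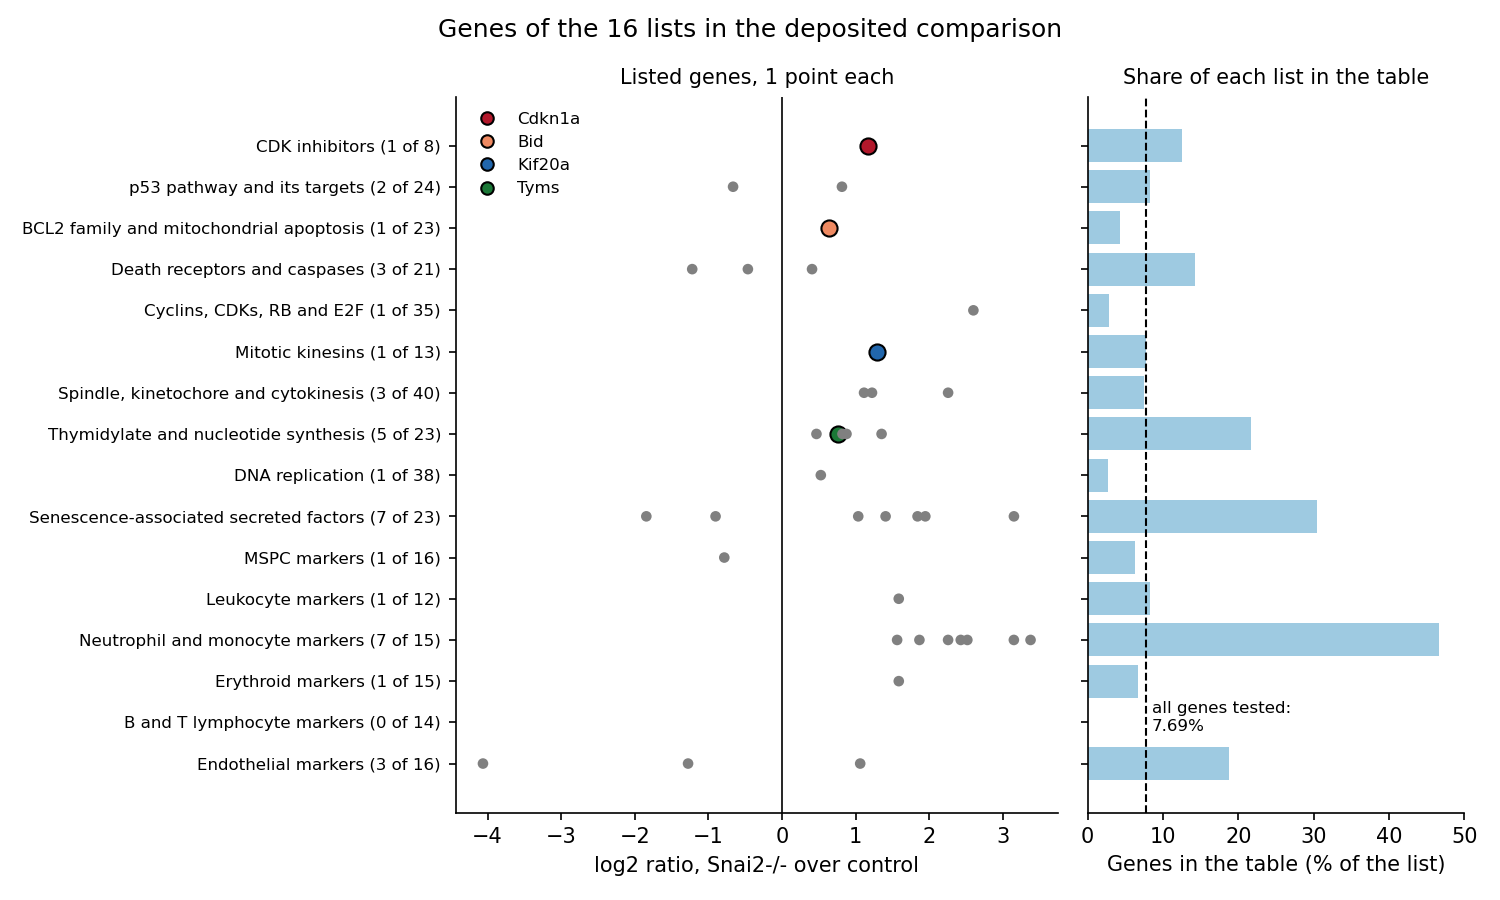
Left, log2 ratio of Snai2-/- over control for the listed genes of 16 gene lists, 1 point per gene, with the 4 genes in colour and the listed number of each list in brackets. Right, the share of each list found in the deposited table in percent, with the 4 picked genes counted. A dashed line marks the 7.69% of all genes tested. Points of the spindle and nucleotide lists all lie right of 0, whereas death-receptor and caspase genes lie on both sides.

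Kif20a had the largest ratio of the 4 and the largest p. Per the authors' deposited table it averaged 10.8 in Snai2-/- against 4.39 in control cells, a ratio of 2.45. The unadjusted p was 0.0316 and the FDR 0.592 in the authors' deposited table, rank 891 of 1285 by p. At this level the table holds mostly large ratios, since 83 higher genes of similar level had a median ratio of 2.55, and 38 of them had a smaller ratio than Kif20a. The smallest ratio among the 83 was 1.49. Kif20a lies on chromosome 18, from 34624613 to 34633277 on the plus strand. Its exons share 1271 bases, 29.3% of their length, with Cdc23 on the opposite strand. Cdc23, a subunit of the anaphase-promoting complex, was not in the table, and how reads of the shared stretch were counted is not stated in the labels or headers.

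Kif20a was the 1 listed gene of 13 mitotic kinesins, 7.69% of the list, the same share as the 7.69% of all genes tested. Kif20a was picked from the comparison and 0 other kinesins of the list were listed, so nothing can be read from this entry. Kif23, Kif11 and Kif2c were absent from the table. Of 40 genes of the spindle, the kinetochore and cytokinesis 3 were listed, 7.5% against 7.69% of all genes tested, each with a higher mean in Snai2-/- cells. Pttg1, which encodes securin, the inhibitor of the enzyme that parts sister chromatids, averaged 24.7 in Snai2-/- against 5.18 in control cells, at an FDR of 0.507 per the authors' deposited table. Racgap1, a subunit of the centralspindlin complex on the same central spindle as KIF20A, averaged 11.3 in Snai2-/- against 4.86 in control cells, at an FDR of 0.584 per the authors' deposited table. Spc24, a subunit of the NDC80 complex of the kinetochore, averaged 7.36 in Snai2-/- against 3.40 in control cells, at an FDR of 0.62 per the authors' deposited table. The standard proliferation markers Mki67, Top2a, Birc5, Aurkb and Plk1 were not in the table.

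Tyms lay between Bid and Cdkn1a in its ratio. Per the authors' deposited table it averaged 32.2 in Snai2-/- against 19.1 in control cells, a ratio of 1.69. The unadjusted p was 0.0153 and the FDR 0.488 there, rank 524 of 1285 in the authors' deposited table. Of 108 higher genes at a similar level, 42 had a smaller ratio than Tyms, and the median ratio of the 108 was 1.802. Tyms lies on chromosome 5, from 30058202 to 30073617 on the minus strand, and no other gene of GENCODE M21 overlaps it. A processed pseudogene, Tyms-ps on chromosome 10 (87966847 to 87967761), is 93.8% identical to a Tyms transcript over its 915 bases. Reads of that part could be shared between the copies, so the value of Tyms is less certain there, and Tyms-ps was not in the table.

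Of the 5 division, synthesis and cyclin lists, that of nucleotide synthesis had most entries, 5 of 23 genes with Tyms included. That is 21.7% where 7.69% of all genes tested were listed. Tyms was picked from the comparison, and 4 genes were listed without it. Each of the 5 had a higher mean in Snai2-/- cells, with a median log2 ratio of 0.82. Mthfd2, a mitochondrial enzyme of the folate cycle that also feeds thymidylate synthase, averaged 11.8 in Snai2-/- against 4.61 in control cells, at an FDR of 0.588 per the authors' deposited table. Ctps, which makes CTP, averaged 38.9 in Snai2-/- against 21.2 in control cells, at an FDR of 0.473 per the authors' deposited table. Impdh1, an enzyme of guanine nucleotide synthesis, averaged 42.6 in Snai2-/- against 24.1 in control cells, at an FDR of 0.359 per the authors' deposited table. Gart, an enzyme of purine synthesis, averaged 39.0 in Snai2-/- against 28.2 in control cells, at an FDR of 0.504 per the authors' deposited table. Other genes of thymidylate supply, Shmt1, Tk1 and Dtymk, were not in the table, nor were Rrm1 and Rrm2 of ribonucleotide reductase.

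DNA replication and cyclin genes had 1 entry in each list, 2.63% and 2.86% of them against 7.69% of all genes tested, a difference that was not tested. Of 38 replication genes 1 was listed, Orc2 of the origin recognition complex, averaging 29.7 in Snai2-/- against 20.6 in control cells per the authors' deposited table (FDR 0.626 there). Pcna and the Mcm2 to Mcm7 helicase genes were not in the table. Of 35 cyclin, CDK, RB and E2F genes 1 was listed, Ccnd1, which encodes the G1 cyclin D1. Per the authors' deposited table it averaged 7.45 in Snai2-/- against 1.23 in control cells, a 6.06-fold ratio whose FDR was 0.356. Across the 5 division, synthesis and cyclin lists 11 of 149 genes were listed, 5 of them from the nucleotide-synthesis list. The share was 7.38% with the picked Kif20a and Tyms counted, close to the 7.69% of all genes tested. All 11 were higher in Snai2-/- cells, 9 of 9 with Kif20a and Tyms set aside, where 49.1% of all listed genes were higher. Genes with related functions are not independent, so this count of direction carries no error, and the share of all genes tested is not matched on level.

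**Figure D4:**
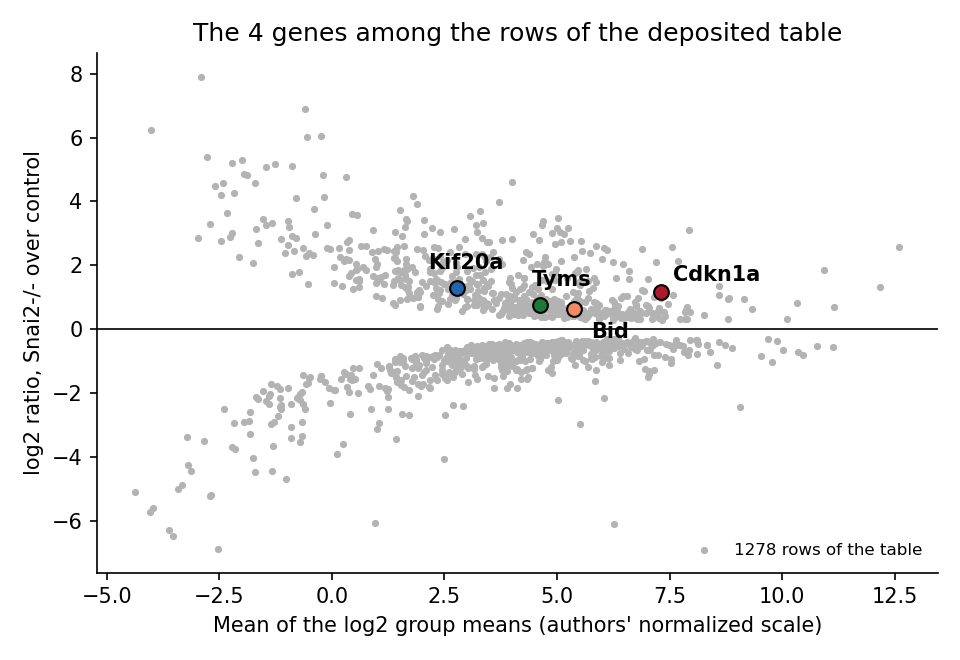
Each grey point is 1 of 1278 genes of the deposited table, by the mean of its log2 group means (x) and its log2 ratio of Snai2-/- over control (y); 7 genes with a group mean of 0.0001 are not drawn. The 4 genes lie in the upper arm, Kif20a at a low deposited value beside large ratios and Cdkn1a at a high one where most listed ratios are smaller. The empty band around 0 reflects the selection of genes at p below 0.05.

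Markers of other marrow cells, some of which divide far more than stroma, were also in the table. Of 15 neutrophil and monocyte markers 7 were listed, 46.7% against 7.69% of all genes tested, and 7 were higher. This list too was chosen with earlier results of these data known, so its share is a description only. The means of the 7 summed to 820.1 in Snai2-/- against 186.4 in control cells per the authors' deposited table. Ngp, a granule protein of maturing neutrophils, averaged 281.5 in Snai2-/- against 49.2 in control cells per the authors' deposited table. Mpo, Elane and Prtn3, granule genes of the earlier and dividing precursors, were not in the table. Of 15 erythroid markers 1 was listed (6.67%), Car1, averaging 137.1 in Snai2-/- against 45.7 in control cells per the authors' deposited table. Of 12 general leukocyte markers 1 was listed (8.33%), Cd48, with 3.64 in Snai2-/- against 1.21 in control cells per the authors' deposited table. Of 14 lymphocyte markers 0 were listed. Of 16 endothelial markers 3 were listed (18.8%), 1 higher and 2 lower. Flt4 was the higher one, averaging 6.85 in Snai2-/- against 3.28 in control cells per the authors' deposited table. Vwf averaged 1.38 in Snai2-/- against 23.0 in control cells, and Stab1 2.73 against 6.61, per the authors' deposited table. The FDR there was 0.648 for Vwf, 0.588 for Stab1, 0.591 for Flt4, 0.646 for Car1, 0.616 for Cd48 and 0.562 for Ngp. The part of these other marrow cells in the values of Kif20a, Tyms, Cdkn1a and Bid was not tested. In bulk RNA more cells of a type and more RNA per cell cannot be told apart. Of 16 MSPC markers 1 was listed (6.25%, near the 7.69% of all genes tested). It was Ebf1, averaging 210.3 in Snai2-/- against 362.5 in control cells, at an FDR of 0.316 per the authors' deposited table. The level of the other MSPC markers could not be checked.

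Secreted or cell-surface factors that accompany p21 in senescent cells were looked up beside Cdkn1a. Of 23 such genes 7 were listed, 30.4% against 7.69% of all genes tested. Of the 7, 5 were higher and 2 lower in Snai2-/- cells, and their median log2 ratio was 1.41. The list was chosen with earlier results of these data known, so nothing can be read from this share. Plaur, the urokinase receptor, averaged 14.0 in Snai2-/- against 1.58 in control cells, at an FDR of 0.47 per the authors' deposited table. Hgf, hepatocyte growth factor, averaged 25.8 in Snai2-/- against 9.73 in control cells, at an FDR of 0.375 per the authors' deposited table. The chemokine genes Ccl2 and Ccl7 were the lower pair, at 0.534 and 0.278 times their control means per the authors' deposited table. Several of these genes have other roles in bone marrow stroma, such as Mmp13, a collagenase of bone cells, whose ratio was 3.58 in the authors' deposited table. Gdf15 and the Igfbp genes of the list were not in the table.

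The listed genes nearest to each of the 4 in both level and log2 ratio were found by the distance between the 2 values, predicted genes set aside. Only Kif20a had neighbours from the division, synthesis and cyclin lists. They were Mthfd2 of the nucleotide-synthesis list and Racgap1 among its 5 nearest, at ratios of 2.55 and 2.33 per the authors' deposited table. The nearest genes were Atp1b3, a subunit of the sodium pump, for Cdkn1a, Usp15 for Bid, Arrdc1 for Tyms and Rnf150 for Kif20a. With 1 mean per group such likeness rests on 2 values per gene.

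Stricter limits separated the 4 genes. At a deposited p below 0.02 Cdkn1a, Tyms and Bid were kept, where 1.99% of all genes tested were called and higher in Snai2-/- cells. At p below 0.01 Cdkn1a alone was kept, against 1.21% of all genes tested. At an FDR below 0.5 Cdkn1a and Tyms were kept (1.79% of genes tested), and with a limit of 2-fold Cdkn1a and Kif20a were (2.11%). Cdkn1a was the 1 gene of the 4 to pass each of these 4 limits. The limits on p and on FDR cut the same order of genes, so passing them is not separate support.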

How the data were processed

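The series holds RNA-seq of 6 libraries of sorted mouse MSPCs, 3 control and 3 Snai2-/-, grouped by the sample titles. Per the labels' protocols, cDNA was made with SMART-Seq v4 and libraries with Nextera XT, which amplify cDNA and keep no strand information. Tools listed in the submitters' processing notes are edgeR 3.12.0, HTSeq and Trim Galore, with mm10 as the build and no roles stated. Neither aligner nor statistical model is given in the sources used here.

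Per the file headers, the deposited table compares mutant with wildtype by an unadjusted p-value, a step-up FDR, a ratio, a signed fold change and 1 least-squares mean per group. The deposited means are a normalized signal: 0 of 1285 totals are whole numbers, and each total is 3 times the sum of both means within a relative 1e-06. The columns for mutant and wildtype were taken as the Snai2-/- and control groups. The number of genes tested, 16718, was recovered from the FDR values, a step checked on made-up tables. No model was fitted here, the depth per library is unknown, and p-values measure only the spread between these libraries, which may be technical, since the labels do not say that each library is 1 animal. Listed genes were selected at p below 0.05, which biases their ratios away from 1, most at low means.

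The 4 genes and the 16 lists (336 genes) were chosen with earlier results of these data known, and 3 further genes of the lists are not reported here. The genes named are the 4, listed members of the lists, Snai2 and the 5 nearest rows of each of the 4. Absent genes were named after the table was read, and the p53 motif was added then. Gene models come from GENCODE M21 and promoters from RefSeq (GRCm38.p6). Python 3.11.15, numpy 2.4.6, pandas 2.3.3 and matplotlib 3.10.9 were used.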

Additional observations from a re-analysis of the deposited data

How the results depend on the processing

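The count of 4 genes higher in Snai2-/- cells at a deposited p below 0.05 fell to 3 at p below 0.02, 1 at p below 0.01, 2 at FDR below 0.5, 2 at a 2-fold limit and 0 at FDR 0.05, and was 4 with a mean of at least 10 in the higher group. Pseudocounts of 1 or 5 on the group means, or division by the median ratio of all rows (a log2 shift of 0.36), were tried. They gave 12 log2 ratios for the 4 genes, from 0.57 to 1.65. All 12 were above 0, but none of these settings could have reversed a direction, so the signs are no check. An equal pseudocount keeps the order of both means, and division by a median ratio below 1 raises every ratio. The lowest value of Kif20a among the 12 was 0.75, with a pseudocount of 5, against 1.30 as deposited. No paired analysis was possible because only 1 mean per group was used, and for the same reason left-out libraries, other normalizations and count models were not run. Whether 1 library sets any of the 4 values could not be examined.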
